A study of Mus musculus with 8 samples.

Results

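The acyl-CoA thioesterase genes *Acot1*, *Acot2*, *Acot3*, *Acot4*, *Acot7*, *Acot8*, *Acot9*, *Acot11* and *Acot13* were followed in the left ventricle (LV) of hypertrophic mouse hearts. They are the 9 rows with these gene names in a table of RNA sequencing counts of 46040 genes. They were chosen by the log2 fold changes between the genotypes in these same libraries, which were known beforehand, so that this difference is given below as a description, and counts of members past a test's limit are no evidence about them. The 8 libraries came from 5- to 7-month-old male mice of the C57BL/6 strain that received angiotensin II (angII) from subcutaneous minipumps at 0.1 mg/kg/h and were collected on day 14. Each genotype had 4 libraries. In VEGFR-1 TK-/- mice, *Flt1* encodes a VEGFR-1 that lacks its tyrosine kinase domain, and the controls were their littermates. Every mouse had received angII and had survived to day 14, and no library of an untreated heart was analysed here.

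For each sample, the title states the opposite genotype to that of the genotype tag and the library name. Groups follow the tag and the library name here, and are termed control-tagged and VEGFR-1 TK-/--tagged. Positive log2 fold changes mean higher values in VEGFR-1 TK-/--tagged LVs, and every sign would be the other way round under the titles. The library names also mention cardiomyocytes, whereas the source was LV tissue. *Flt1* lay between 56.9 and 84.3 normalised CPM (counts scaled to a common library size) in the control-tagged libraries and between 143 and 170 in the VEGFR-1 TK-/--tagged LVs. This is a log2 fold change of 1.19 ± 0.12 (SE, n = 4 per group). A count of the whole gene does not test for the loss of the kinase domain. Total counts per library ran from 11449137 to 16239670. The test covered the 13542 genes that reached a CPM of 1 in 2 or more libraries, and *Flt1* was the single gene called by edgeR's quasi-likelihood test with a false discovery rate (FDR) under 0.1 and a fold of 1.5 or more in either direction (FDR = 0.00808).

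Acyl-CoA thioesterases split fatty acyl-CoA, the activated form in which fatty acids enter oxidation and lipid synthesis, into a free fatty acid and coenzyme A (CoA). Different members work in the cytosol, the mitochondria and the peroxisomes, and so set how much acyl-CoA and free CoA each compartment holds. In the heart, which draws most of its energy from fatty acids, several of these genes are known targets of the fatty acid receptor PPARα, the nuclear receptor that also drives the genes of beta-oxidation.

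*Acot2*, *Acot1*, *Acot4* and *Acot3* lie in this order on the plus strand of chromosome 12 (GRCm38), at chr12:83987861-83993873, chr12:84009490-84018371, chr12:84038379-84048601 and chr12:84052144-84060402. The coding sequences of *Acot1* (1257 bases) and *Acot2* (1359 bases) were identical at 95.3% of 1236 aligned bases, whereas the other pairs among *Acot1* to *Acot6* were identical at 75.9% to 85.8%. A read that lies wholly in a shared stretch cannot by itself be assigned to a single gene, so the stretches are shown. Its mate in these paired-end libraries may still place it, which was not examined. The following 120 coding bases were the most different of any 120 aligned bases, from *Acot1* at chr12:84016886-84017005 and *Acot2* at chr12:83992608-83992727, with the 14 differing bases in capitals (GENCODE M21, GRCm38, plus strand, 5′ to 3′).
Acot1: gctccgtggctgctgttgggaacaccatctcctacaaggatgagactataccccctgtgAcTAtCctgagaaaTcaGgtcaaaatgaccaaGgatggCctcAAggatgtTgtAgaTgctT
Acot2: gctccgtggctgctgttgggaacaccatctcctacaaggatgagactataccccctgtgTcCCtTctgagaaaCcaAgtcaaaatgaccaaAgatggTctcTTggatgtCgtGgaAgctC
Directly after them, both genes shared an identical run of 273 coding bases, of which the first 120 were the same letters at chr12:84017006-84017125 in *Acot1* and chr12:83992728-83992847 in *Acot2*.
Acot1 and Acot2: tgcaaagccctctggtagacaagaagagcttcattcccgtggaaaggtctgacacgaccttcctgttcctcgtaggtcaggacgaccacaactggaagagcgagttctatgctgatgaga
*Acot2* begins with 123 coding bases, at chr12:83987902-83988024, that lie before the first base aligned to *Acot1*. *Acot2* encodes the mitochondrial enzyme of the pair, and *Acot1* the cytosolic one.
Acot2: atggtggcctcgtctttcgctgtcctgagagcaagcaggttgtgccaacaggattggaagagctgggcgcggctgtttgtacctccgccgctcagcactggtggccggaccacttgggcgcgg

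Of all windows of 100 bases in the transcripts of *Acot2*, 17.1% occurred also in *Acot1*, and 9.32% of those of *Acot1* occurred in *Acot2*. With any other gene, 12.4% of the windows of *Acot1* and 13.8% of those of *Acot3* were shared. Most of those of *Acot3* were shared with *Gm49366*, a gene model that overlaps it on the same strand by 396 exon bases. *Gm49366* is not among the 46040 genes counted. The 13.8% is thus an upper limit for the windows that *Acot3* shares with counted genes. For *Acot4* the share was 0.336%, for *Acot9* 0.705%, and for *Acot7*, *Acot8*, *Acot11* and *Acot13* it was 0. How reads with several alignments were counted is not given in the sources used here, so *Acot1* and *Acot2* are given singly and as a sum. Their neighbour *Acot3* shares exon bases with an antisense gene, as does *Acot4*, and that antisense gene had 1 to 5 counts per library.

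The promoter sequences of the members (250 bases before to 50 bases after the start, RefSeq, GRCm38.p6) were searched on both strands for AGGTCA, the half-site of nuclear receptors such as PPARα and its partner RXR, for CCAAT, the box that NF-Y binds, for the E-box CACGTG and for the TATA-box letters TATAAA. The table held 10 promoters for 8 of the members and none for *Acot13*, which was therefore not searched. The window of *Acot7*, at chr4:152185358-152185657, lies inside the gene, whose GENCODE model starts at chr4:152178134. AGGTCA occurred in *Acot3* and *Acot4* (in 16.3% of 32851 promoters of all genes). CCAAT occurred in *Acot1*, *Acot2*, *Acot3*, *Acot4*, *Acot8*, *Acot9* and *Acot11* (37.4%), CACGTG in *Acot4* and *Acot11* (7.15%), and TATAAA in *Acot4* and *Acot9* (13.6%). *Acot3* and *Acot11* had alternative promoters and are named if any of theirs held the motif, whereas the shares are of single promoters. In *Acot11*, CCAAT and CACGTG lay in different promoters. The promoters of *Acot1*, at chr12:84009252-84009551, and *Acot2*, at chr12:83987611-83987910, are shown because the coding sequences of these genes are so alike, and that of *Acot4*, at chr12:84038129-84038428, because it held each of the 4 motifs. Capitals mark the motifs on either strand, and the RefSeq start lies 250 bases after the first letter. For *Acot1*, this start differs slightly from the GENCODE start of the gene given above.
Acot1: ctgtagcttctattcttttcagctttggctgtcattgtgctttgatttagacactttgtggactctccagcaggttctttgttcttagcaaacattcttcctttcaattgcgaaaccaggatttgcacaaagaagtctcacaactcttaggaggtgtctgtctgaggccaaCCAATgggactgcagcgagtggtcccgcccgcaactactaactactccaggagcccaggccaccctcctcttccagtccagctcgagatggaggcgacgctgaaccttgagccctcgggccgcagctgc
Acot2: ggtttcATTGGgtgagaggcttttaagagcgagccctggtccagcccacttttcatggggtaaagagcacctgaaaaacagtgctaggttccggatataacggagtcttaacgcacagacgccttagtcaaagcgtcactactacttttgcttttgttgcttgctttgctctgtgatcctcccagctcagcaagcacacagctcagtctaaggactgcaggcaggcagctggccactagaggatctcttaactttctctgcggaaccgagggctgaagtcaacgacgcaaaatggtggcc
Acot4: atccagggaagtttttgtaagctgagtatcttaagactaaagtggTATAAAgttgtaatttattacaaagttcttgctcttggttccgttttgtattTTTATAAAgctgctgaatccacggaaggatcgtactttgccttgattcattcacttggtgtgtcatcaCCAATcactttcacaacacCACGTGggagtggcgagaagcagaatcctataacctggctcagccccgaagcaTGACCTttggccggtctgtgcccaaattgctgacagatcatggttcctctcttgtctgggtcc
The repeat of AGGTCA spaced by 1 base, which PPARα and RXR bind together, was not present without mismatch in any member's window. The nearest match, in *Acot4*, had 2 mismatches, and 3.86% of all promoters held one with at most 2. *Acot2*, *Acot3* and *Acot11* came to 3 mismatches, and 24.6% of all promoters held one with at most 3. These matches describe the letters only and were not tied to binding.

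The members covered a wide range of levels in the hypertrophic LV. Normalised CPM per kilobase of exon, which allows levels of different genes to be compared, was by far highest for *Acot13*, at 461.8 ± 81.1 (SD, n = 8 libraries of both groups). *Acot13* encodes a small thioesterase associated with mitochondria that binds the phosphatidylcholine transfer protein, and its level made up 81.5% of the sum of the 9 levels. *Acot13* also exceeded 99.2% of all genes tested on this scale. Next came *Acot7*, a cytosolic enzyme best known for its abundance in brain, at 44.7 ± 7.40, and *Acot2* at 31.88 ± 9.996. *Acot9*, a mitochondrial enzyme, was at 13.8 ± 0.885, and *Acot11*, known from brown fat, was at 5.57 ± 0.727. *Acot8*, a peroxisomal enzyme, was at 5.14 ± 0.557 and *Acot1* at 2.30 ± 1.54. The lowest levels were those of *Acot3* (0.241 ± 0.182) and *Acot4* (0.137 ± 0.0449), both known as peroxisomal enzymes.

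**Figure D1:**
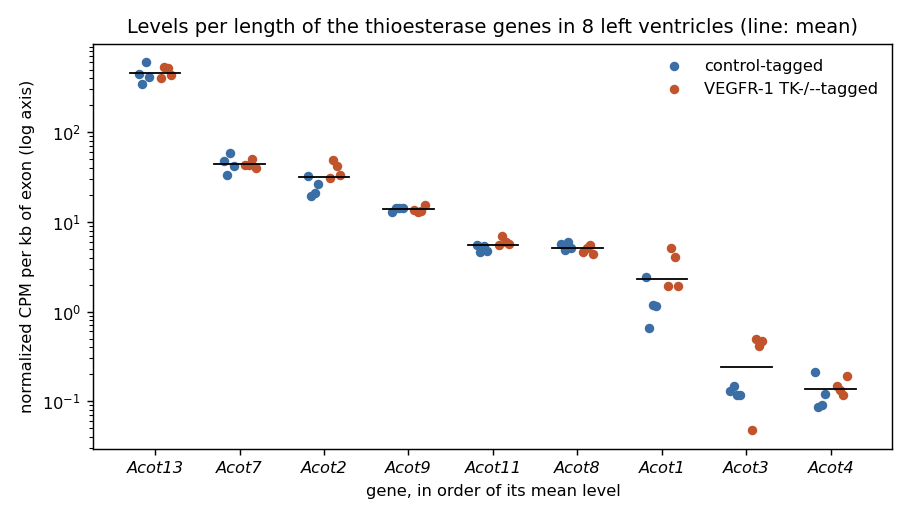
Level of each member as normalised CPM per kilobase of exon on a log axis, one point per library, with control-tagged and VEGFR-1 TK-/--tagged LVs in different colours and a line at the mean of the 8 libraries. *Acot13* stood at a mean of 461.8, and *Acot3* and *Acot4* stood below 1.

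Neighbours in this order were compared over the 8 libraries, 8 comparisons in all, with an exact 2-sided permutation test of the signs of the log2 differences, in which the smallest p is 0.00781. *Acot13* exceeded *Acot7* 10.3-fold in 8 of 8 libraries (adjusted p = 0.0125). *Acot7* exceeded *Acot2* 1.45-fold in 7 of 8 libraries (exact permutation test, adjusted p = 0.0208). It did so 1.81-fold among the control-tagged and 1.16-fold among the VEGFR-1 TK-/--tagged libraries. Whether reads shared by *Acot1* and *Acot2* were dropped, which would lower the levels of both, is not known and not covered by these p-values. *Acot2* exceeded *Acot9* 2.22-fold, *Acot9* exceeded *Acot11* 2.49-fold, *Acot8* exceeded *Acot1* 2.7-fold and *Acot1* exceeded *Acot3* 10.4-fold, each in 8 of 8 libraries (exact permutation test, adjusted p = 0.0125). *Acot11* and *Acot8* did not differ beyond their spread, with *Acot11* higher in 4 of 8 libraries (exact permutation test, adjusted p = 0.25). *Acot11* was the higher of these in 0 of 4 control-tagged and in 4 of 4 VEGFR-1 TK-/--tagged libraries. *Acot8* exceeded *Acot1* 4.41-fold in the control-tagged and 1.65-fold in the VEGFR-1 TK-/--tagged libraries. *Acot3* and *Acot4* did not differ beyond their spread either, with *Acot3* higher in 5 of 8 libraries (exact permutation test, adjusted p = 0.305). The cytosolic member of the near-identical pair was thus at a far lower level than the mitochondrial one, and its counts made up 5.65% to 15.7% of the counts of the pair.

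In whole LV tissue, fewer cells of a type and less RNA per cell cannot be told apart, which applies to each difference below. Between the genotypes, *Acot1*, *Acot2* and *Acot3* of the chromosome 12 cluster had the largest differences among the members, but *Acot4* of that cluster did not. *Acot1* had 9.58, 2.54, 4.64 and 4.56 normalised CPM in control-tagged replicates 1 to 4, from 128, 35, 69 and 57 counts. In VEGFR-1 TK-/--tagged replicates 1 to 4 it had 7.48, 20.2, 15.7 and 7.57, from 92, 227, 199 and 95 counts. Replicates 2 and 3 of the VEGFR-1 TK-/--tagged group were higher than every other library, and control-tagged replicate 1 was higher than the remaining VEGFR-1 TK-/--tagged LVs, so that the groups overlapped. The means were 5.33 ± 2.996 and 12.7 ± 6.28 (SD, n = 4 each), a log2 fold change of 1.25 ± 0.40 (SE). It was 1.69 without control-tagged replicate 1 and 0.94 without VEGFR-1 TK-/--tagged replicate 2.

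*Acot2* had 71.7, 42.4, 46.5 and 58.7 normalised CPM in the control-tagged libraries, from 958, 584, 691 and 734 counts. In the VEGFR-1 TK-/--tagged LVs it had 68.1, 108.3, 91.1 and 73.2, from 838, 1220, 1153 and 919 counts. The same VEGFR-1 TK-/--tagged replicates, 2 and 3, were highest, and control-tagged replicate 1 again exceeded VEGFR-1 TK-/--tagged replicate 1. The means were 54.8 ± 13.2 and 85.2 ± 18.3 (SD, n = 4 each), a log2 fold change of 0.64 ± 0.18 (SE).

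If each shared read was counted once, the sum of *Acot1* and *Acot2* does not depend on how reads were divided between these genes. Whether shared reads were instead dropped or counted for both is not known. The sum was 81.3, 44.9, 51.1 and 63.2 normalised CPM in the control-tagged libraries and 75.6, 128.5, 106.8 and 80.8 in the VEGFR-1 TK-/--tagged LVs. Both groups overlapped through control-tagged replicate 1. The log2 fold change of the sum was 0.70 ± 0.20 (SE, n = 4 per group), with a range of 0.54 to 0.88 when each library was left out in turn. *Acot1* made up 8.43% ± 2.64 of the summed counts in the control-tagged group and 12.4% ± 3.25 in the VEGFR-1 TK-/--tagged group (SD, n = 4 each), and these shares overlapped.

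*Acot3* had only 6, 7, 6 and 5 counts in the control-tagged libraries, or 0.3998 to 0.508 normalised CPM. In the VEGFR-1 TK-/--tagged LVs it had 2, 19, 18 and 20 counts, or 0.163, 1.69, 1.42 and 1.59 normalised CPM. VEGFR-1 TK-/--tagged replicate 1 was thus the lowest of all 8 libraries and the other VEGFR-1 TK-/--tagged LVs were the highest. *Acot3* reached a CPM of 1 in 0 control-tagged and 3 VEGFR-1 TK-/--tagged LVs, so it entered the fit through the group in which it was high. Its log2 fold change was 1.44 ± 0.53 (SE, n = 4 per group), and 1.81 without VEGFR-1 TK-/--tagged replicate 1. *Acot4* had 19, 8, 9 and 10 counts against 12, 10, 10 and 16 counts, so its groups overlapped, with a log2 fold change of 0.21 ± 0.36 (SE, n = 4 per group) that was 0.57 without control-tagged replicate 1 and 0.06 without VEGFR-1 TK-/--tagged replicate 4.

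**Figure D2:**
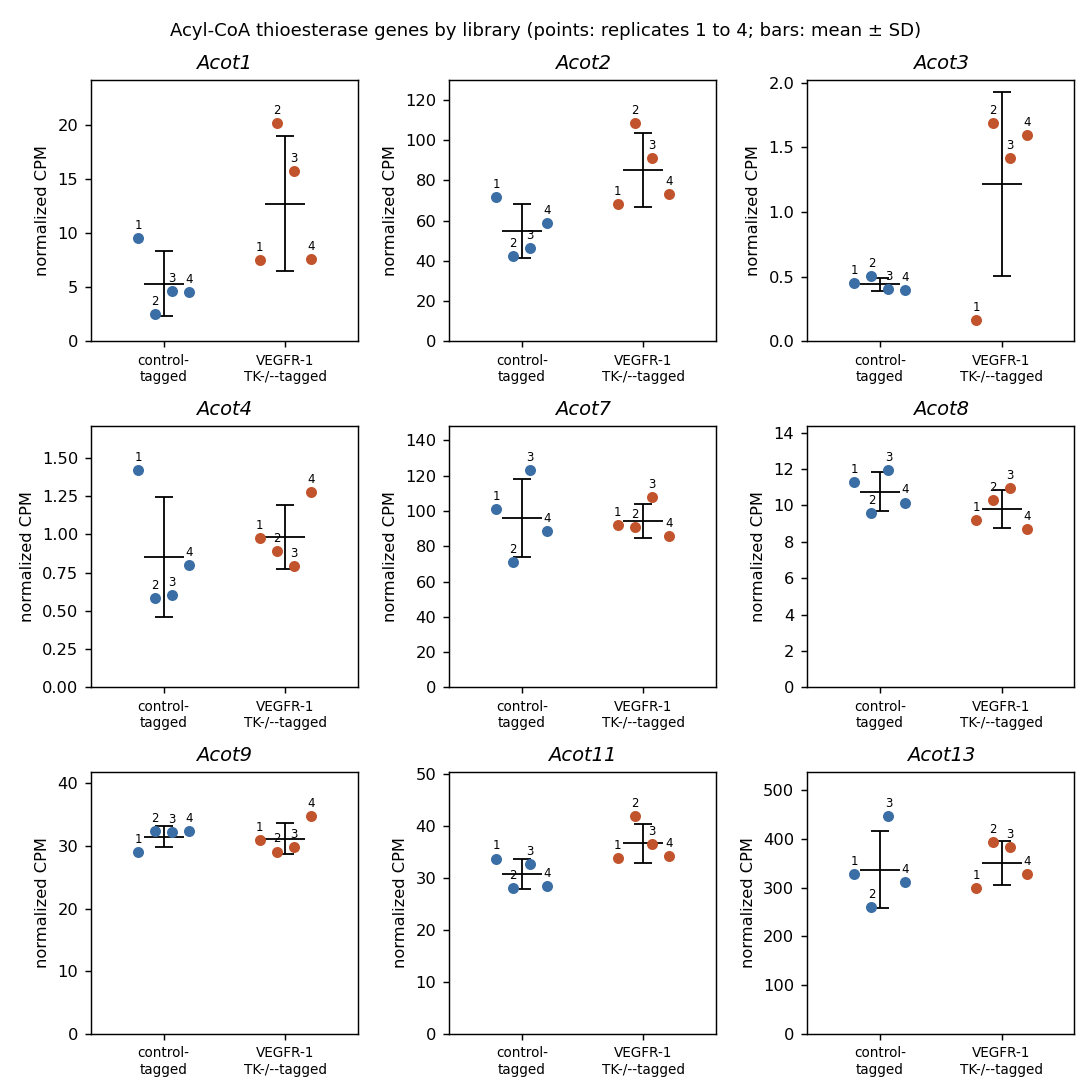
Normalised CPM of each member in each of the 8 libraries, one panel per gene with its own axis from 0, points numbered by replicate, and bars for the group mean ± SD (n = 4). VEGFR-1 TK-/--tagged replicates 2 and 3 carried the highest values of *Acot1*, at 20.2 and 15.7, and of *Acot2*, at 108.3 and 91.1.

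*Acot11*, whose product hydrolyses long-chain acyl-CoA and limits fuel use in brown fat, was the member with the clearest order of its libraries. It had 33.76, 28.16, 32.75 and 28.55 normalised CPM in the control-tagged libraries and 33.88, 41.99, 36.58 and 34.27 in the VEGFR-1 TK-/--tagged LVs. There was no overlap of the groups, but the highest control-tagged library lay just under the lowest VEGFR-1 TK-/--tagged one. The log2 fold change was 0.25 ± 0.10 (SE, n = 4 per group). *Acot11* was the 1 of 9 members whose groups did not overlap, and over all genes tested the groups did not overlap for 4.98%, with higher values in the VEGFR-1 TK-/--tagged group for 2.46%. Its exons overlap those of *Fam151a* on the other strand, which had 0 to 4 counts per library.

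For the most abundant members, the groups lay close to each other. *Acot13* had 328, 260, 447 and 311 normalised CPM in the control-tagged libraries and 299, 394, 382 and 327 in the VEGFR-1 TK-/--tagged LVs, with a log2 fold change of 0.06 ± 0.16 (SE, n = 4 per group). *Acot7* ranged from 71.3 to 123 in the control-tagged and from 85.5 to 107.8 in the VEGFR-1 TK-/--tagged LVs, with a log2 fold change of -0.03 ± 0.15 (SE). Control-tagged replicate 3 was the highest library for both genes and control-tagged replicate 2 the lowest. The sign of both differences changed when single libraries were left out.

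*Acot9* ranged from 29.0 to 32.5 normalised CPM in the control-tagged and from 29.1 to 34.8 in the VEGFR-1 TK-/--tagged LVs, a log2 fold change of -0.01 ± 0.09 (SE, n = 4 per group) whose sign also changed with single libraries. *Acot8* ranged from 9.58 to 11.97 and from 8.69 to 10.98, respectively, with a log2 fold change of -0.14 ± 0.13 (SE, n = 4 per group) that ranged from -0.20 to -0.083 when each library was left out. *Acot8* shares 246 exon bases with *Snx21* on the other strand, which had 391 to 473 counts per library. These members outside chromosome 12 thus did not share the larger values of *Acot1* and *Acot2*.

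Set beside all genes, 0 of the 9 members were called by the quasi-likelihood test with an FDR under 0.1 and a 1.5-fold difference or more, where 0.00738% of all genes were called. The likelihood ratio test called 0 of 9 as well, with 0.391% of all genes called. DESeq2 gave an adjusted p for 7 members, not for *Acot3* and *Acot4*, and called 0 of the 7, with 0.293% of the genes it adjusted called. Since these differences chose the members, the following counts are a description from which nothing is read, and *Acot3* is among them through the group in which it is high. At an unadjusted p under 0.05, the quasi-likelihood test had 4 members, *Acot1*, *Acot2*, *Acot3* and *Acot11*, all higher in the VEGFR-1 TK-/--tagged LVs, and 3.32% of all genes were higher by this rule (8.96% in either direction). The likelihood ratio test and DESeq2 also had 4 members each at this limit, with 9.14% and 8.67% of all genes in either direction. A level 1.5-fold or more higher was reached by *Acot1*, *Acot2* and *Acot3*, and by 1.2% of all genes in this direction. The nearest value below that size was *Acot11*, at a log2 fold change of 0.25. The median log2 fold change was 0.21 over the members and -0.0012 over all genes, and 6 of 9 members and 49.7% of all genes were above 0.

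**Figure D3:**
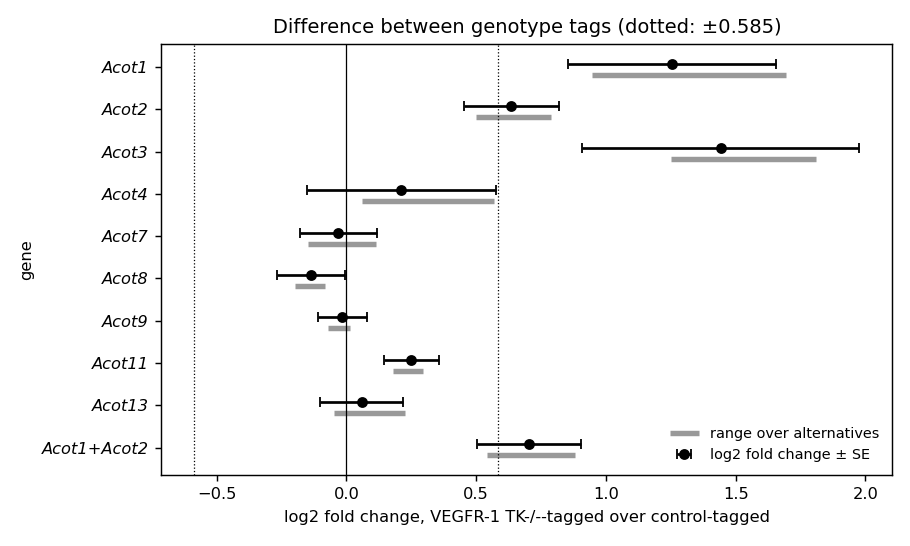
Log2 fold change of each member and of the sum of *Acot1* and *Acot2* (VEGFR-1 TK-/--tagged against control-tagged) with its SE as an error bar and a grey line for the range over the alternative settings. *Acot1*, *Acot2* and *Acot3* lay between 0.64 and 1.44, and *Acot7*, *Acot8*, *Acot9* and *Acot13* between -0.14 and 0.06.

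How the members varied among libraries of the same group was not itself used to choose them. With few libraries per group, however, genes of large spread more often reach large fold changes. The SDs below are thus not independent of the choice. The spread within groups, as the SD of log2 normalised CPM after centring on the group mean, was 0.74 for *Acot1*, and 98.3% of all genes had a smaller SD. It was 0.32 for *Acot2* (76.3% of genes smaller), against a median of 0.21 over all genes. *Acot3* and *Acot4* had SDs of 0.87 and 0.40, but from counts of 20 or fewer, where counting error is large. *Acot9* was the steadiest member, with an SD of 0.098 (9.13% of genes smaller), followed by *Acot11* at 0.14 and *Acot8* at 0.15.

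Within groups, the levels of *Acot1* and *Acot2* had the highest Pearson's r of all pairs (r = 0.94, exact permutation test p = 0.00521, and Spearman's rho = 0.88, p = 0.0174, n = 8 libraries). Over the 36 pairs of members, no pair had an adjusted p under 0.05 for either measure, and the adjusted p of this pair was 0.0625 for r and 0.175 for rho (exact permutation test). Without the 2 libraries farthest from the median of *Acot1*, r was 0.83 (exact permutation test p = 0.0833), so that the p no longer passed 0.05. Reads that lie wholly in stretches shared by these genes cannot by themselves be told apart, and their share in this correlation was not tested. *Acot1* and *Acot11*, which share no windows of 100 bases, had r = 0.86 (exact permutation test p = 0.00174, adjusted p = 0.0625) and rho = 0.93 (p = 0.00347, adjusted p = 0.125), and r was 0.65 without the 2 farthest libraries. *Acot7* and *Acot8* had r = 0.86 (exact permutation test p = 0.00521, adjusted p = 0.0625) and rho = 0.83 (p = 0.0104, adjusted p = 0.175), with r = 0.86 without the 2 farthest libraries. *Acot9* and *Acot1* had a negative correlation, with r = -0.80 (exact permutation test p = 0.033, adjusted p = 0.223) and rho = -0.74 (p = 0.0694, adjusted p = 0.287), and r was -0.53 without the 2 farthest libraries.

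**Figure D4:**
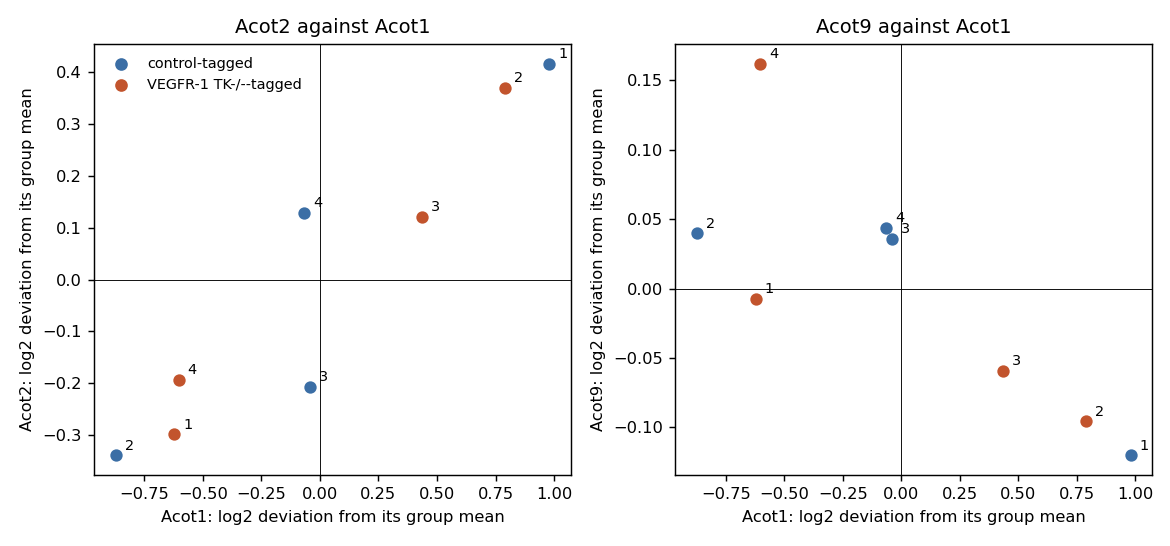
Deviation of log2 normalised CPM from the group mean in each library, with *Acot2* against *Acot1* on the left (r = 0.94) and *Acot9* against *Acot1* on the right (r = -0.80), numbered by replicate and coloured by group. *Acot2* was above its group mean in the libraries in which *Acot1* was clearly above its own, and *Acot9* was below.

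Of 8873 genes with a mean normalised CPM of at least 10, those whose within-group pattern was most like that of the sum of *Acot1* and *Acot2* over the 8 libraries were *Prdx6* (r = 0.99), *Rnf5* (r = 0.99), *Fam185a* (r = 0.98), *Etfdh* (r = 0.98) and *Mfn1* (r = 0.98). *Prdx6* encodes a peroxiredoxin that also acts on phospholipids, *Etfdh* the enzyme that passes electrons from beta-oxidation to the respiratory chain, and *Mfn1* a mitofusin of the outer mitochondrial membrane. *Prdx6* had 206 to 244 normalised CPM in the control-tagged and 234 to 274 in the VEGFR-1 TK-/--tagged LVs, a much smaller spread than that of *Acot1*. These values of r are the highest of many and describe these libraries, which share their normalisation.

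The pathways around the thioesterases were described with lists of genes, each without the members and with no test of the list. These lists were chosen with earlier results of these data known, so their counts and shares are a description from which nothing is read. Of 32 measured targets of PPAR, 28 had higher and 4 lower values in the VEGFR-1 TK-/--tagged group, with a median log2 fold change of 0.23, and 0 were called. At an unadjusted p under 0.05 in the quasi-likelihood test there were 9, all higher (28.1% of the list). Of all genes, 3.32% were higher at this limit, and 8.96% passed it in either direction. For the lists below, the share of the list at this limit was 12.5% for beta-oxidation, 6.25% for regulators of PPAR and 7.69% for the enzymes that make acyl-CoA. It was 16.7% each for CoA synthesis and turnover and for other thioesterases. The uncoupling protein gene *Ucp3* had 59.1, 135, 64.8 and 44.6 normalised CPM in VEGFR-1 TK-/--tagged replicates 1 to 4 against 25.4 to 46.5 in the control-tagged libraries (log2 fold change 0.98 ± 0.30, SE, n = 4 per group), and *Angptl4*, whose product inhibits lipoprotein lipase, had 17.3, 50.1, 10.5 and 6.70 against 7.92 to 17.1 (0.81 ± 0.51). *Ehhadh*, of peroxisomal beta-oxidation, had 10.2, 26.3, 15.1 and 12.3 against 8.88 to 10.8 (0.67 ± 0.25). In each of these 3 genes, VEGFR-1 TK-/--tagged replicate 2 was the highest, as it was for *Acot1*, and without it the median of the list was 0.13.

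Of 32 genes of beta-oxidation, 26 had higher and 6 lower values, with a median log2 fold change of 0.19, 0 called and 4 at an unadjusted p under 0.05. The median was 0.12 without control-tagged replicate 2. *Acadm*, the medium-chain acyl-CoA dehydrogenase, went from 797 ± 160 to 1027 ± 166 normalised CPM (SD, n = 4 each, log2 fold change 0.37 ± 0.16), and the enoyl-CoA isomerases *Eci1* and *Eci2* had log2 fold changes of 0.33 ± 0.17 and 0.33 ± 0.15 (SE). Within groups, 31 of these 32 genes had an r above 0 with the sum of *Acot1* and *Acot2*, with a median r of 0.70, where 49.1% of all genes were above 0. For the targets of PPAR it was 29 of 32, with a median r of 0.65. The summed endothelial markers had r = -0.88 with the sum of *Acot1* and *Acot2* within groups (exact permutation test p = 0.00694, adjusted p over 10 marker lists = 0.0694) and rho = -0.83 (p = 0.0347, adjusted p = 0.255), and r = -0.91 without the 2 farthest libraries. For leukocyte markers r was -0.79 (exact permutation test p = 0.0538, adjusted p = 0.269) and rho -0.71 (p = 0.0764, adjusted p = 0.255), and r was -0.87 without the 2 farthest libraries. The r of fibroblast markers was -0.56 and that of cardiomyocyte markers 0.44 (exact permutation test, adjusted p = 0.521 for each). The part of these markers in the pattern of the lists was not tested. The genes of a list share libraries and some genes stand in both lists, so these counts are a description.

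Of 16 regulators of PPAR, 13 had higher and 3 lower values (median 0.15, 0 called, 1 at an unadjusted p under 0.05). *Ppargc1a*, a coactivator of PPARα and of mitochondrial biogenesis, had 112, 73.1, 81.8 and 112 normalised CPM in the control-tagged libraries and 131, 118, 150 and 156 in the VEGFR-1 TK-/--tagged LVs. These groups did not overlap, where those of 4.98% of all genes tested did not, and the log2 fold change was 0.55 ± 0.15 (SE, n = 4 per group). *Ppara* itself had 5.66 to 8.32 against 6.57 to 9.96 (0.32 ± 0.17), *Ppargc1b* a log2 fold change of 0.28 ± 0.17 and the deacetylase gene *Sirt1* one of 0.21 ± 0.13. Unlike *Acot1*, *Ppargc1a* was not highest in VEGFR-1 TK-/--tagged replicate 2, and its within-group r with the sum of *Acot1* and *Acot2* was 0.41.

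The enzymes that oppose thioesterases by making acyl-CoA showed 7 higher and 6 lower values among 13 measured (median 0.08, 0 called, 1 at an unadjusted p under 0.05). The median depended on single libraries, at 0.00068 without control-tagged replicate 1 and, in the VEGFR-1 TK-/--tagged group, 0.15 without replicate 1, 0.019 without replicate 3 and 0.052 without replicate 4. *Acsl1*, the main long-chain acyl-CoA synthetase of the heart, had 667 to 866 normalised CPM in the control-tagged and 761 to 1036 in the VEGFR-1 TK-/--tagged LVs (log2 fold change 0.24 ± 0.13, SE, n = 4 per group), and its within-group r with the sum of *Acot1* and *Acot2* was 0.97. The fatty acid transporter gene *Slc27a1* had a log2 fold change of 0.55 ± 0.19, *Acsm5* of 0.67 ± 0.39 and *Slc27a3* of -0.22 ± 0.27. *Acsm5* stood at 9.94 in VEGFR-1 TK-/--tagged replicate 2 and at 2.44 to 4.42 in the other libraries.

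Among 18 genes of CoA synthesis and turnover, 15 had higher and 3 lower values (median 0.12, 0 called, 3 at an unadjusted p under 0.05). The median was 0.05 without VEGFR-1 TK-/--tagged replicate 2. *Pank1*, a pantothenate kinase at the first step of CoA synthesis, had 26.8 to 40.4 normalised CPM against 41.5 to 69.4, and *Nudt7*, a peroxisomal enzyme that cleaves CoA, had 52.0 to 64.5 against 68.3 to 86.5. The groups did not overlap for either gene, where they did not for 4.98% of all genes tested. The log2 fold changes of *Pank1* and *Nudt7* were 0.56 ± 0.17 and 0.40 ± 0.11 (SE, n = 4 per group). *Slc25a42*, a mitochondrial carrier of CoA, and *Dbi*, an acyl-CoA binding protein, had log2 fold changes of 0.40 ± 0.18 and 0.26 ± 0.15.

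Of 12 other thioesterases measured, 8 had higher and 4 lower values (median 0.09, 0 called, 2 at an unadjusted p under 0.05). The median was 0.029 without control-tagged replicate 3 and 0.058 without VEGFR-1 TK-/--tagged replicate 4. *Acot6*, of the chromosome 12 cluster, had 22 to 53 counts per library and a log2 fold change of 0.61 ± 0.26 (SE, n = 4 per group), but its within-group r with the sum of *Acot1* and *Acot2* was -0.07. *Acot5*, of the same cluster, had 0 counts in every library, and *Acot10* and *Acot12* had at most 2. The lysosomal thioesterase gene *Ppt2* had a log2 fold change of 0.38 ± 0.15, and the depalmitoylases *Abhd17a* and *Abhd17c* had -0.29 ± 0.16 and -0.23 ± 0.12.

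**Figure D5:**
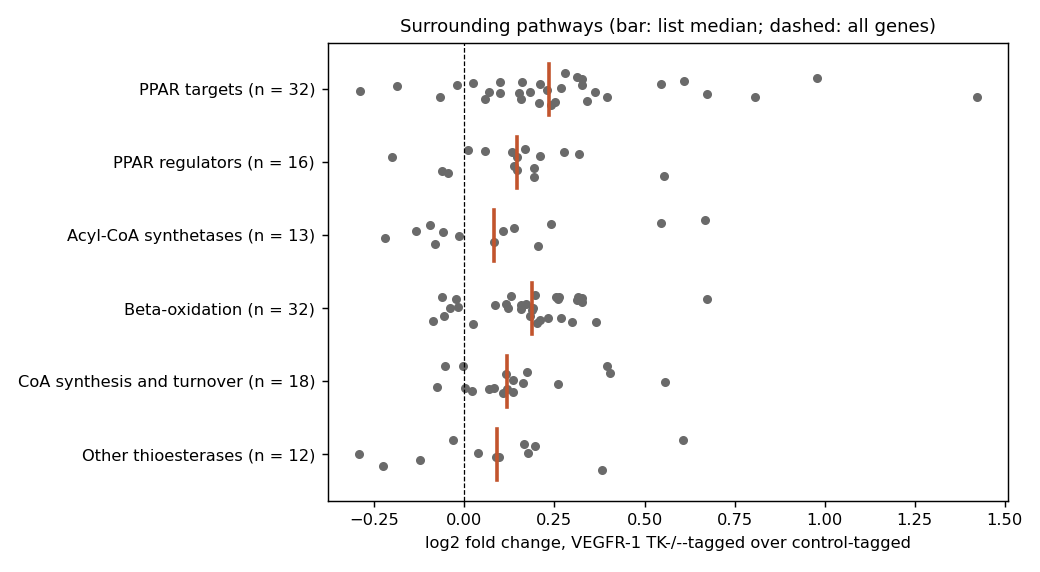
Log2 fold change of each measured gene in the 6 pathway lists, one point per gene, with a bar at the list's median and a dashed line at the median of all genes. The medians lay between 0.08 for acyl-CoA synthetases and 0.23 for targets of PPAR.

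Markers of the cell types were set beside these values. The 7 cardiomyocyte markers summed to 59200 to 91000 normalised CPM in the control-tagged and 77000 to 94900 in the VEGFR-1 TK-/--tagged LVs, with 6 of 7 higher. The 4 endothelial markers summed to 1020 to 1330 and 933 to 1060, with 1 of 4 higher and a median log2 fold change of -0.33. The 5 leukocyte markers summed to 106 to 143 and 73.7 to 112, with 1 of 5 higher (median -0.31). The 4 fibroblast markers summed to 442 to 664 and 240 to 641, with 0 of 4 higher (median -0.14). Thus cardiomyocyte markers were mostly higher and those of endothelial cells, leukocytes, fibroblasts and red blood cells mostly lower in the group in which *Acot1* and *Acot2* were higher, and their part in these values was not tested. The 5 white adipocyte markers summed to at most 1.55, with *Plin1* and *Lep* at 0, and of the 5 brown adipocyte markers *Elovl3* and *Otop1* were at 0, while the list as a whole summed to 41.6 to 62.5 and 43.9 to 61.2. That sum includes *Cpt1b*, which cardiomyocytes express. The 5 neuron and Schwann cell markers summed to 8.07 to 12.9 and 6.38 to 12.5, the 4 atrial markers to 787 to 1310 and 503 to 1430, the 5 red blood cell markers, with 0 of 5 higher and a median log2 fold change of -0.37, to 309 to 765 and 358 to 600, and the 5 skeletal muscle markers, with *Myh2* and *Myh4* at 0, to 2800 to 5720 and 3250 to 4800.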

How the data were processed

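LV RNA was sequenced in 8 libraries. The sources do not state that each came from a separate mouse, and p-values measure the spread between these libraries. Per the study's methods, poly-A-selected RNA was made into stranded paired-end libraries, whereas the labels describe depletion of ribosomal RNA. Reads were trimmed with Trim Galore 0.4.4, aligned to GRCm38 with STAR 2.5.4b, and assigned to GENCODE M16 genes with featureCounts. Strand setting and the handling of reads with several alignments are not given in the sources used here. The authors deposited whole-number counts per gene, not normalised.

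Genes needed a CPM of 1 in 2 or more libraries. Counts were scaled by TMM and fitted with the quasi-likelihood test of edgeR 4.0.16 in R 4.3.3, without covariates, and p-values were adjusted by Benjamini-Hochberg over 13542 genes. The SE of a log2 fold change was derived from this test, as its absolute value divided by the square root of the F statistic. The authors' likelihood ratio test, DESeq2 1.42.0, other scalings and filters, a replicate block and each library left out served as alternatives. The fit was also run on simulated counts with the same dispersion for every gene. That dispersion was below those of *Acot1*, *Acot2*, *Acot3*, *Acot4*, *Acot7* and *Acot13*. This run therefore does not show how the fit behaves for these members. Normalised CPM divides counts by library sizes multiplied by TMM factors, with a prior count of 2 before taking log2. No library was a copy of another of its own group (chi-square per degree of freedom 6.77 to 49.9). Pairs across the groups were not checked in this way. Correlations were computed on log2 values centred within groups, with all 576 permutations within groups. Coordinates, exon lengths and coding sequences came from GENCODE M21 (GRCm38), from which 849 genes of the table are missing. Coding sequences were aligned in place of proteins. Figures and relations were made in Python 3.11.15.

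The members and lists were chosen with earlier results of these data known. All members were named, together with the 4 genes of each list with the largest absolute log2 fold change, the 5 genes most like *Acot1* and *Acot2*, *Flt1* and cell type markers. The values of 1 gene covered by this rule are not reported here. Other genes were named for overlapping or neighbouring a member.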

Additional observations from a re-analysis of the deposited data

Results flagged for a closer look

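*Acot9* in the control-tagged group had 1 library apart from the other 3. Replicate 1 was at 29.0 normalised CPM and the others at 32.3 to 32.5, so that the gap to the nearest library made up 0.948 of the group's range. Chance flags about 1 in 20 groups of this kind, and 20 groups were looked at.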

How the results depend on the processing

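The log2 fold changes of *Acot1*, *Acot2*, their sum, *Acot4*, *Acot8* and *Acot11* kept their direction under all 16 alternatives, as did *Acot3* under the 15 in which it could be fitted (it did not pass filterByExpr), and no member with an adjusted p was called under any. The count of genes called, 1, was 53 with the likelihood ratio test, 32 with DESeq2 and 23 without a filter on low counts, and 1 to 3 when each library was left out (2 without control-tagged replicate 1, 3 without replicate 2 and 3 without replicate 4 of that group). With each library left out, *Acot13* ranged from -0.046 to 0.22, *Acot7* from -0.15 to 0.11 and *Acot9* from -0.072 to 0.014. The sign reversed for *Acot13* without replicate 2 of either group (-0.046 control-tagged, -0.0038 VEGFR-1 TK-/--tagged), for *Acot7* without control-tagged replicate 3 (0.11) and when VEGFR-1 TK-/--tagged replicate 4 was left out (0.01), and for *Acot9* without VEGFR-1 TK-/--tagged replicate 2 (0.014) or 3 (0.0033). The r of *Acot1* and *Acot2* was 0.83 without the 2 libraries farthest from the median of *Acot1*, where fewer libraries limit the p, and 0.91 to 0.98 when each was left out. With scaling by total counts in place of TMM, this r was 0.87. The cause of the other differences was not tested. With the longest transcript as length, *Acot8* came before *Acot11*. Depth limits *Acot3* and *Acot4*, at 2 to 20 counts per library.

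Same-numbered libraries of the groups share only a number. The correlations of their deviations were -0.03, 0.03, 0.34 and -0.06, and 1 of 4 correlated best with its own number. With the replicate number as a block, 1 gene was called, and the log2 fold change was 1.24 for *Acot1*, 0.64 for *Acot2*, 0.71 for their sum and 1.36 for *Acot3*.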
